A study of Arabidopsis thaliana with 3 samples.

Results

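The SWEET genes encode small membrane proteins that let sugars pass down their concentration gradient, and 10 of them were followed here in the nectar glands of Arabidopsis thaliana flowers. The members are the SWEET genes of a given list that are the single gene name of a probe set, a group of short probes for one transcript, in the platform annotation. All 10 were found, with 1 probe set each, among 7965 genes named in this way and 14338 probe sets in all. Arabidopsis has 17 SWEET genes, and 11 of them carry a single-name probe set in the table used here. The one outside the list, SWEET6, had no value on any array, and the other family members are not analysed here.

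Nectar is a sugar solution that the gland secretes to reward pollinators. In the accepted account of the Arabidopsis gland, sucrose made in the nectary cells leaves them through SWEET9 at the plasma membrane, and a cell wall invertase then splits it into glucose and fructose, which draws out water and keeps sucrose flowing. The wider family carries glucose, fructose or sucrose at the plasma membrane or at the vacuole, in processes that include phloem loading, pollen development and sugar storage.

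The samples were lateral nectaries, the larger glands of the flower, cut by hand from Columbia-0 plants at flower stages 14 to 15, when nectar is secreted. The mutant group carries the cwinv4-1 allele in CWINV4, the cell wall invertase gene named above, and is described by the submitters as nectarless. The mutant was sampled as replicates 1 and 2 and the wild-type once, and every sample went onto its own 1-colour Affymetrix array. Plants of both groups were 30 to 35 days old and grown in 16 h of light and 8 h of dark. Nectaries were collected 4 to 8 h after dawn, and each sample combined about 250 to 300 of them. One mutant sample is titled cwinv4-1a rather than cwinv4-1, with the same genotype label. CWINV4 has no named probe set here, so the mutated gene could not be used to check the labels. In whole glands, a change in the number of cells that express a gene and a change in RNA per cell cannot be told apart.

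The arrays were not equally alike, which limits how far the values below can be read. A signal, the brightness of a probe set, was deposited for 86.9% of probe sets in wild-type, 86.8% in cwinv4-1 replicate 1 and 79.3% in replicate 2. The rest read null, whose meaning is not given in the sources used here. Over 10334 probe sets with 3 values, the log2 difference from wild-type had an SD of 0.44 on replicate 1 and 0.73 on replicate 2. Of 6 control pairs that compare the 3′ with the 5′ end of a transcript, 5 had their highest ratio on replicate 2. The exception, an actin pair, gave 32.2 on replicate 1 and 25.8 both on replicate 2 and in wild-type. The pairs cover actin, GAPDH and ubiquitin alone, so they are not 6 separate checks. One GAPDH pair gave 4.81 in wild-type, 2.87 in replicate 1 and 11.2 in replicate 2, and the other gave 1.38, 1.28 and 2.44. The part of these differences in the SWEET values was not tested.

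SWEET9 (AT2G39060), the sucrose exporter of nectar secretion, was among the brightest transcripts of the gland in every sample. Its signal was 19700 in wild-type, 16300 in cwinv4-1 replicate 1 and 38100 in replicate 2. The wild-type value lay between those of the mutant samples, so the groups overlapped. Only 20 of 12455 probe sets were brighter on the wild-type array, 32 of 12441 on replicate 1 and 13 of 11365 on replicate 2. SWEET9 thus stood at the 99.8th percentile of signal in wild-type and at the 99.7th and 99.9th in the mutant, and nectaries labelled as lacking secretion kept a SWEET9 signal in the top 1% of the array.

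**Figure D1:**
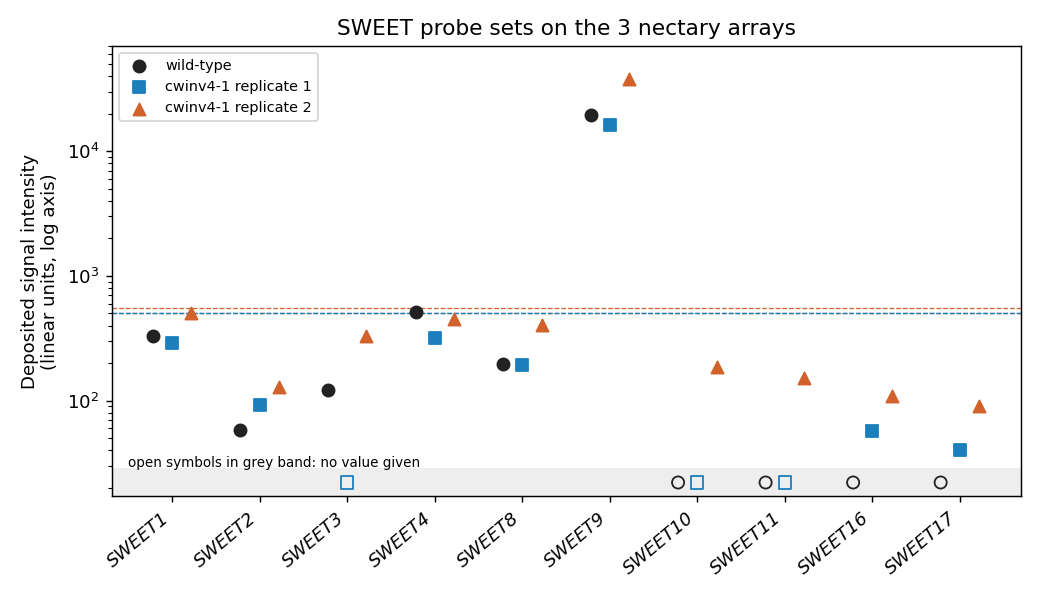
Deposited signal intensity (log axis) of the 10 SWEET probe sets on the wild-type array (circles), cwinv4-1 replicate 1 (squares) and cwinv4-1 replicate 2 (triangles); open symbols in the grey band mark arrays with no value, and dashed lines are the median signals of the arrays. SWEET9 lies at 16300 to 38100 on all 3 arrays, while every other SWEET value lies between 40.4 and 511.1.

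SWEET9 did not differ between the groups beyond the spread of the mutant samples. It was 1.21-fold lower than wild-type on replicate 1 and 1.93-fold higher on replicate 2, log2 differences of -0.27 and 0.95. Fitted over both, the log2 fold change came to 0.34 (SE 0.61, limma unadjusted p = 0.583, adjusted p = 1.00). Its 95% interval ran from -0.94 to 1.62, that is from 0.520 to 3.07 times the wild-type level. That width leaves the direction of any difference undetermined at this sample number. The SE, interval and p rest mostly on a spread that limma borrows across probe sets, not on SWEET9 alone. The SD of SWEET9 itself over the mutant samples was 0.87 on the log2 scale. The fitted value was -0.07 when the 3 arrays were given the same distribution of signal by quantile normalization.

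Other very bright transcripts also read higher on replicate 2. Among the 100 probe sets with the highest mean signal, 91 were brighter on replicate 2 than in wild-type, with a median log2 difference of 0.57 and a range from the 10th to the 90th percentile of 0.06 to 1.06. SWEET9, at 0.95, was inside that range, and 17 of the 100 had a larger difference. Between the mutant samples the 100 had a median log2 difference of 0.60 and a 90th percentile of 1.15. SWEET9 exceeded that percentile at 1.22, a 2.34-fold gap, and 5 of the 100 had a larger one. On replicate 1 the same 100 probe sets had a median of -0.06, and 10 of them were further below wild-type than SWEET9. The 100 were chosen by a mean that includes replicate 2, which favours probe sets bright there. Their shares and medians on replicate 2 therefore do not speak for all bright transcripts.

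The other nectary marker measured, JMT, did not follow SWEET9 on replicate 2. JMT encodes the enzyme that makes methyl jasmonate. Its signal was 11900 in wild-type, 12400 on replicate 1 and 2368 on replicate 2, a log2 difference of 0.06 and then of -2.33 (limma adjusted p = 0.956 over both). Both markers were thus bright in wild-type and on replicate 1, and they lay on opposite sides of wild-type on replicate 2. These are 2 of the 10 nectary markers listed, the only ones with a named probe set here.

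Markers of other tissues were few. Of 7 pollen and anther markers, 2 had a named probe set. The pollen gene AT3G07820 read 658 in wild-type, 569.1 on replicate 1 and 128.2 on replicate 2, and the other was SWEET8, described further on. These 2 went opposite ways on replicate 2, with log2 differences from wild-type of -2.36 for AT3G07820 and 1.06 for SWEET8. Their summed signal, 852.8 in wild-type and 762.8 and 535.6 in the mutant, therefore stands for neither, and it includes a SWEET member. Of 5 phloem markers SWEET11 alone was measured. The 3 green tissue markers of 6 that were measured summed to 22095 in wild-type and to 21308 and 20761 in the mutant, but they differed among themselves. PSAN, of photosystem I, read 2788 in wild-type and 4068 and 5696 in the mutant. LHCB4.1, a light-harvesting protein, read 8107 and then 7140 and 5208, and RCA, the activase of Rubisco, read 11200 and then 10100 and 9857. The part of these tissues in the SWEET values was not tested.

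The glucose and hexose carriers of the plasma membrane, SWEET1 and SWEET4, gave moderate signals, and neither passed the test. SWEET1 (AT1G21460), a glucose carrier, had a signal of 328.8 in wild-type, 290.4 on replicate 1 and 504.7 on replicate 2. As for SWEET9, wild-type lay between the mutant samples. Its log2 differences were -0.18 and 0.62, and the fitted log2 fold change was 0.22 (SE 0.44, 95% interval -0.71 to 1.15, limma unadjusted p = 0.623, adjusted p = 1.00).

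SWEET4 (AT3G28007), a hexose carrier known from leaf veins, was the one member below wild-type in both mutant samples. Its signal was 511.1 in wild-type, 319.4 on replicate 1 and 451.5 on replicate 2. The mutant samples did not overlap the single wild-type value, a placing shared by 37.2% of all tested probe sets. The fitted log2 fold change was -0.43 (SE 0.42, 95% interval -1.31 to 0.45, limma unadjusted p = 0.317, adjusted p = 1.00). SWEET4 moved from the 50.1st percentile of signal in wild-type to the 37.3rd on replicate 1 and the 43.0th on replicate 2.

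The order of SWEET1 and SWEET4 by rank within an array turned on replicate 2. SWEET4 ranked above SWEET1 in wild-type and on replicate 1, where SWEET1 stood at the 37.3rd and 34.7th percentiles, and below it on replicate 2, where SWEET1 stood at the 46.8th. A rank is of signal and not of transcript number, because probe sets bind their targets unequally. Shifts were also set side by side: the log2 difference from wild-type of SWEET9 exceeded that of SWEET4 by 0.40 on replicate 1 and by 1.13 on replicate 2. Multiplying a whole array by 1 factor does not alter this excess. After quantile normalization it was 0.36 and 0.25. For SWEET1 against SWEET4 the excess was 0.50 and 0.80. Shifts on replicate 2 varied with signal, however. Their median was 0.57 among the 100 brightest probe sets, with SWEET9, and -0.03 in the signal decile of SWEET4. Both classes are cut by a mean that includes replicate 2. These comparisons share the wild-type array and were not tested.

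**Figure D2:**
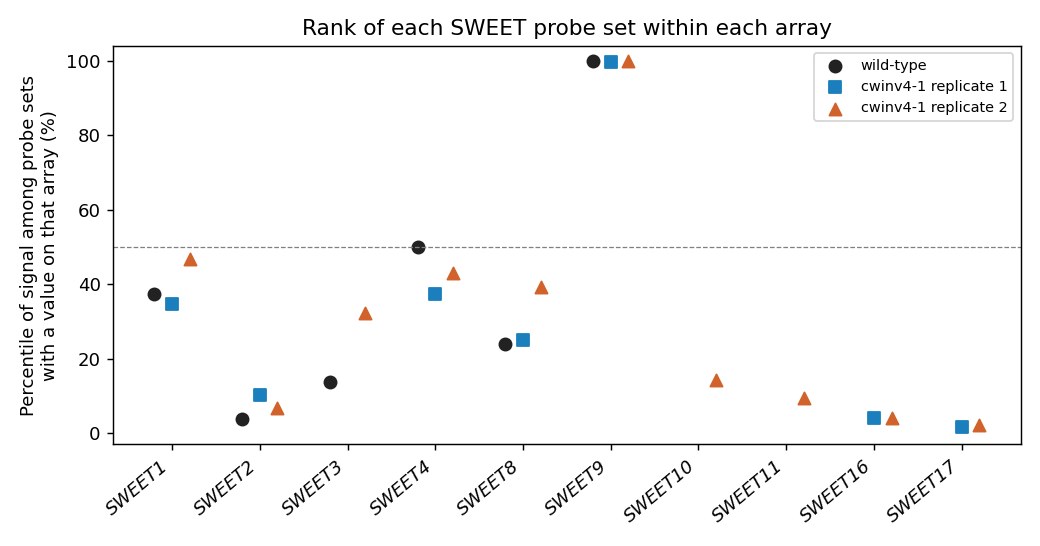
Percentile of signal of each SWEET probe set among all probe sets with a value on the same array, for wild-type (circles), cwinv4-1 replicate 1 (squares) and cwinv4-1 replicate 2 (triangles), with the dashed line at the median. SWEET9 sits at the 99.7th percentile or above on each array. The other members lie from the 1.62nd to the 50.1st percentile, below the median except for SWEET4 in wild-type, just above it.

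Altogether 3 of the 10 members, SWEET9, SWEET1 and SWEET4, could enter the test, which needed 3 values and a mean signal of at least 310.6. None of the 3 passed limma's test at an adjusted p of 0.05, against 0.426% of the 7750 probe sets tested, and none had an unadjusted p under 0.05. The median log2 fold change of the 3 was 0.22, beside -0.05 over all tested probe sets. With 3 arrays an exact permutation test has 3 arrangements and cannot give a p below 0.333.

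SWEET8 and SWEET2 had values on all arrays but were too dim for the test. SWEET8 (AT5G40260), also called RPG1, is a glucose carrier needed for the pollen wall. Its signal was 194.8 in wild-type, 193.7 on replicate 1 and 407.4 on replicate 2. The wild-type and replicate 1 values were nearly equal, and replicate 2 was 2.09-fold above wild-type. With no filter on signal, its log2 fold change of 0.53 had a 95% interval of -0.52 to 1.58 (limma adjusted p = 1.00).

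SWEET2 (AT3G14770), a glucose carrier of the vacuole membrane known from roots, was the one member above wild-type in both mutant samples on the deposited scale. Its signal was 57.9 in wild-type, 91.9 on replicate 1 and 128.8 on replicate 2, and the groups did not overlap. SWEET8 was also above wild-type on both arrays after median centring (0.01 and 0.95) and quantile normalization (0.05 and 1.02). Of all probe sets with 3 values, 31.6% were likewise higher on both. The log2 differences of SWEET2 were 0.67 and 1.15, and on replicate 1 SWEET2 was exceeded in its difference from wild-type by 5.03% of probe sets. With no filter its log2 fold change of 0.91 had a 95% interval of -1.24 to 3.06 (limma adjusted p = 1.00), and 1.22% of the 10334 probe sets passed in that setting. All 3 of its signals were under 222, the 25th percentile of all deposited values, so its mean difference was 0 with signals floored there and 0.25 with that amount added to each. In rank it stood at the 3.70th percentile in wild-type, the 10.3rd on replicate 1 and the 6.72nd on replicate 2, so the brighter signal of replicate 2 over replicate 1 came with a lower rank.

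Among probe sets with 3 values, the dimmest mostly read higher on replicate 2. The deciles below hold only such probe sets and are cut by a mean that includes replicate 2. A further 1430 probe sets, 9.97% of all, had values in wild-type and on replicate 1 but none on replicate 2. Probe sets without a value on replicate 2 had a median signal of 138.1 in wild-type, where they had one. They enter no decile, so the shares and medians do not speak for all dim transcripts. In the dimmest decile of probe sets by mean signal, where SWEET2 lies, the median log2 difference of replicate 2 from wild-type was 0.69, and 82.3% of probe sets were above wild-type. In decile 2, with SWEET8, the median was 0.26, against 1.06 for SWEET8. In decile 3, with SWEET1, it was 0.03, against 0.62 for SWEET1. SWEET4, in decile 4, had -0.18 beside a median of -0.03. All 4 lay between the 10th and 90th percentile of their decile on replicate 2. On replicate 1 the medians of these deciles lay between -0.07 and -0.03, with SWEET2 above the 90th percentile of its decile (0.54) and SWEET4 below the 10th percentile of its own (-0.48).

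**Figure D3:**
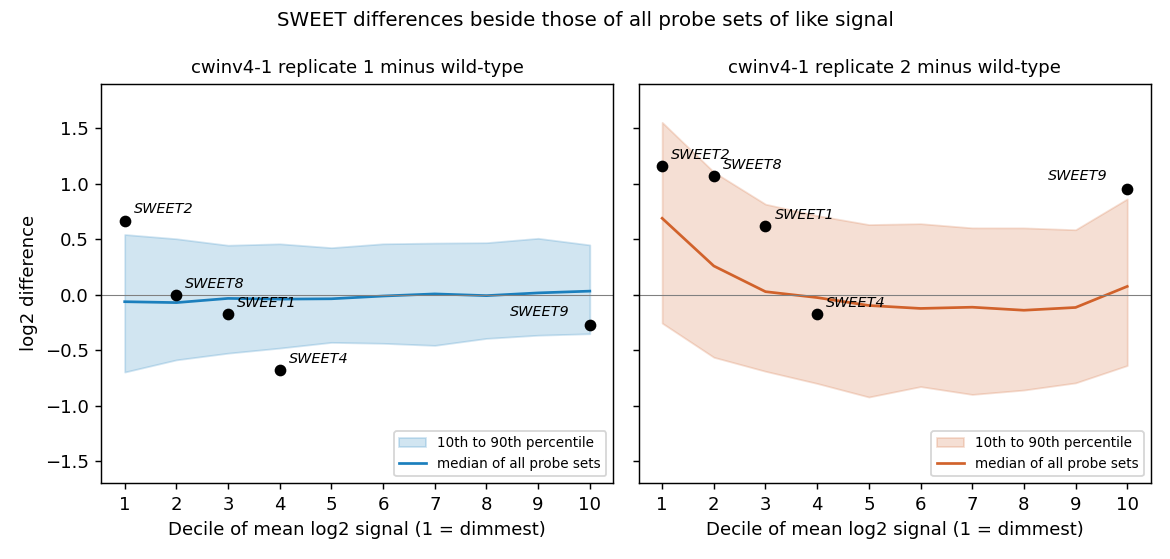
Log2 difference from wild-type of the 5 SWEET genes with 3 values (black points) over the deciles of mean signal, for cwinv4-1 replicate 1 (left) and replicate 2 (right). The line is the median and the band the 10th to 90th percentile of all probe sets with 3 values in each decile. The deciles and the 100 brightest probe sets are chosen by a mean that includes replicate 2. On replicate 2 the line rises to 0.69 in the dimmest decile, and SWEET9 at 0.95 stands above the 90th percentile (0.86) of the brightest decile, though within the range of the 100 brightest probe sets.

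The remaining 5 members lacked a value on at least 1 array and could not be tested. SWEET3 (AT5G53190) read 120.9 in wild-type and 327.9 on replicate 2, a log2 difference of 1.44, with no value on replicate 1. The 193 probe sets with values on the same 2 arrays had a median difference of 1.32, so SWEET3 was close to the middle of its class.

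The vacuolar carriers SWEET16 and SWEET17, of which SWEET17 is a fructose carrier that affects leaf fructose content, had values only in the mutant. SWEET16 (AT3G16690) read 57.2 on replicate 1 and 107.9 on replicate 2, and SWEET17 (AT4G15920) read 40.4 and 90.1. Both therefore lay in the lowest 5% of signal, with SWEET16 at the 4.21st percentile of replicate 1 and SWEET17 at the 1.62nd. A value on both mutant arrays alone occurred for 223 probe sets, 1.56% of all. Such probe sets had a median signal of 70 on replicate 1 and 158.6 on replicate 2, so both genes were dimmer than most of them. As the meaning of a null is not given, no fold against wild-type is drawn from this pattern.

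The sucrose carriers SWEET10 and SWEET11 had a value on replicate 2 alone. SWEET10 (AT5G50790), which is induced in the shoot apex at the floral transition, read 184.6, and SWEET11 (AT3G48740), which with its close relative SWEET12 exports sucrose for phloem loading in leaves, read 151. They stood at the 14.3rd and 9.37th percentiles of that array. A value on replicate 2 alone was given for 615 probe sets, 4.29% of all, with a median signal of 144.9. SWEET9 was thus the only one of the 3 measured sucrose carriers of its subfamily with a value on more than 1 array.

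Replicate 2 gave a value for 10 of the 10 members, replicate 1 for 7 and wild-type for 6. Of all probe sets 79.3% had a value on replicate 2, a share that includes the 4.12% with none on any array. The listed members include no gene of that kind, since SWEET6 is outside the list, so nothing is read from this count. Of the 5 SWEET genes with no value in wild-type, SWEET6 included, 4 had one on replicate 2, as did 44.5% of all such probe sets. All 7 members with values in both mutant samples were brighter on replicate 2, by log2 differences from 0.49 for SWEET2 to 1.22 for SWEET9 with a median of 0.92. Over all probe sets 52.4% were brighter on replicate 2 than on replicate 1, with a share that varied with signal. Among probe sets with 3 values the share was 86.8% in the dimmest decile (SWEET2), 73.0% in decile 2 (SWEET8) and 56.5% in decile 3 (SWEET1). It was 49.4% in decile 4 (SWEET4) and 94% among the 100 brightest (SWEET9). All these classes are cut by a mean that includes replicate 2. After quantile normalization SWEET2 turned, at -0.21, while the other 4 members with 3 values stayed brighter on replicate 2.

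On replicate 1, 4 of the 5 members with values there and in wild-type were below wild-type, or 3 of 5 after median centring or quantile normalization, where SWEET8 turned from -0.01 to above 0. Above wild-type on the deposited scale were 1 of the 5 members and 46.3% of all probe sets. On replicate 2, 5 of 6 members were above wild-type, as were 51.5% of all probe sets. By size, 0 of 5 members were 2-fold above wild-type on replicate 1 and 0 of 5 were 2-fold below, where 1.79% and 2.03% of all probe sets were. On replicate 2, 3 of 6 were at least 2-fold above on the deposited scale, SWEET3, SWEET2 and SWEET8, against 9.86% of all probe sets. None was 2-fold below, against 5.31%. SWEET8 fell under 2-fold after median centring (log2 difference 0.95), and SWEET2 after quantile normalization (0.45). The 9.86% spans all signal levels. Median log2 differences were 0.69 in the decile of SWEET2, 0.26 in that of SWEET8 and 1.32 in the class of SWEET3. These counts rest on replicate 2 alone, and nothing about the family is read from them.

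**Figure D4:**
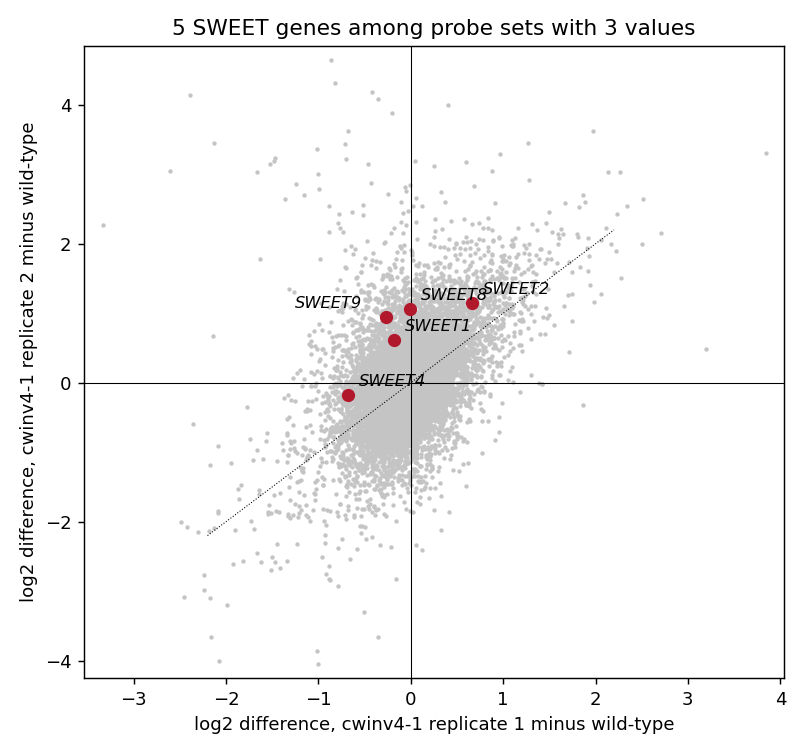
Log2 difference from wild-type on cwinv4-1 replicate 1 (x axis) and replicate 2 (y axis) for the 10334 probe sets with 3 values (grey) and the 5 SWEET genes among them (red); the dotted line marks equal differences, and both axes share the wild-type array. On the deposited scale SWEET2 is the one SWEET gene above 0 on both axes and SWEET4 the one below 0 on both, while SWEET9, SWEET1 and SWEET8 lie above 0 on replicate 2 alone.

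The pattern of SWEET9 over the 3 arrays was also met in genes of other kinds. Among 4019 tested probe sets with 1 gene name, the closest by distance over both log2 differences was rps3, a plastid gene for a ribosomal protein, with -0.30 and 1.00 (distance 0.06). Next came AT5G11910 with -0.31 and 1.04, AT5G14210 with -0.20 and 0.85, AT5G54860 with -0.22 and 0.81 and AT1G27700 with -0.22 and 0.80. Likeness over 3 arrays that share 1 wild-type value says only that these probe sets read alike.

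The other sugar carriers and the enzymes of sucrose were sparsely covered. None of 9 sucrose-proton symporters and none of 10 invertases has a named probe set here, and of 14 hexose-proton symporters AT1G34580 alone did, with a value of 129.3 on replicate 1 only. Of 17 carriers of the tonoplast, the plastid and polyols, 5 had a named probe set and 2 were tested, neither passing. AT5G17010, a vacuolar glucose transporter family gene, read 729.9 in wild-type and 1276 and 1120 in the mutant. The fitted difference was 0.71 on the log2 scale, with an SE of 0.38 and a limma adjusted p = 0.896. Here both mutant samples lay above the single wild-type value, as they did for 31.6% of probe sets with 3 values. TMT1, a proton-coupled sugar importer of the vacuole, had a log2 fold change of 0.05, and its relative TMT2 read 305.8 in wild-type and 298.8 and 308.5 in the mutant. AT2G35840, a sucrose phosphatase that completes sucrose synthesis, read 1748 in wild-type and 1681 and 2479 in the mutant, with wild-type between them as for SWEET9.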

How the data were processed

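RNA of lateral nectaries was measured on 3 Affymetrix arrays, 2 of cwinv4-1 and 1 of wild-type, grouped by their titles. The deposited table gives a linear intensity for each probe set and array, made with MAS5 per the submitters' processing notes, with version and target level not given in the sources used here. Per the series' design text, other wild-type nectary arrays, not used here, took part in the normalization. Per the labels' protocols, 500 ng of RNA per sample was amplified in 1 round, which can favour 3′ ends. Nothing was rescaled further, and null cells were kept as missing.

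Names come from GEO's annotation of the platform, and 8000 of the 8037 probe sets with 1 gene name were matched to loci of RefSeq TAIR10.1. No build is stated in the files, so no coordinates are given, and no sequence is shown. The 37 control probe sets were left out of ranks and tests.

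Intensities were tested as log2 values with limma 3.58.1 in R 4.3.3 (lmFit, eBayes with a trend, two-sided), on the 7750 of 10334 probe sets with 3 values whose mean log2 was at or above the 25th percentile, with Benjamini-Hochberg adjustment over all of them and calls at 0.05. Only 1 residual degree of freedom remains, so the single wild-type sample is assumed to vary like the mutant ones. The eBayes step borrows spread across probe sets, with 15.38 prior degrees of freedom in the main setting. The SE, interval and p of a gene therefore do not show its own replicate spread alone. The number of arrays limits the precision. The fit was tested beforehand on simulated data with log2 changes of 2 and equal noise on each array, smaller than the spread between the mutant samples. Unequal arrays and smaller differences, as met here, were not simulated. The design text calls both mutant samples biological replicates and does not say whether they came from separate plantings.

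Percentiles count the probe sets of lower signal on the same array. Named are all members, the 5 tested genes closest to SWEET9 by Euclidean distance over both log2 differences, and up to 3 measured genes of each list by mean signal. Members and lists were chosen with earlier results of these data known. The alternatives were a floor at, or a pseudocount of, 222 signal units, quantile normalization, centring on medians, other filters and priors, leaving out each mutant sample, and other sets of probe sets to rank among.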

Additional observations from a re-analysis of the deposited data

How the results depend on the processing

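No SWEET gene passed limma's test in any of the 9 other settings. SWEET4 stayed below wild-type in each setting that tested it and without either mutant sample. SWEET2, untested for its low signal, had a mean difference of 0 with the floor, 0.25 with the pseudocount and 0.56 with quantile normalization, against 0.91. SWEET9 turned below wild-type, to -0.0693 with quantile normalization over probe sets with 3 values and to -0.0748 with missing values kept, a setting chosen after seeing the data. Leaving out 1 mutant sample gave values from -0.27 to 0.95 for SWEET9 and from -0.18 to 0.62 for SWEET1, the negative ones without replicate 2, and these have no test. The cause was not tested. The count of all probe sets passing limma's test, 33, was 0 with either quantile normalization (397 and 346 at an unadjusted p of 0.05) and 0 with the floor (479), 95 with median centring, 126 with no filter and 90 with a filter at the 50th percentile, which left out SWEET1 and SWEET4. Among probe sets with 1 gene name SWEET9 ranked at 99.9% in wild-type and on replicate 1. The ranks of the other members moved with the set of probe sets ranked among. SWEET4 in wild-type, for example, ranked at 40.7% among probe sets with 3 values and at 54.2% among those with 1 gene name. No paired analysis was possible with a single wild-type sample, and a shared replicate number was not taken to mark a pair. Without wild-type replicates, no setting could leave out the wild-type sample.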
